A study of Mus musculus with 52 samples.

Results

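The transcriptional difference between ciliated and non-ciliated cells carrying an edited Wdr34 gene was measured by RNA sequencing. The comparison takes the 4 libraries of the ciliated Wdr34 clone labelled 1 and the 4 libraries of the non-ciliated Wdr34 clone, picked out by their labels, which is 8 of the 52 libraries and 2 of the 13 groups of the series, a group being a labelled clone in 1 state. All clones are Cilia-APEX-IMCD3 cells, a mouse inner medullary collecting duct line that carries the APEX peroxidase in its cilium, and the edited clones were made with the cytosine base editor BE4-Gam and a guide plasmid, then grown from single sorted cells. The control clones received the editor with an empty guide vector, so that mutant and control cells alike went through the editor. Ciliated cells were held in 0.2% serum for 50 h, whereas 10% serum is stated in the sample labels of every library. The non-ciliated Wdr34 clone was edited at codon 183, from arginine to tryptophan, whereas the labels name no allele for clone 1 and do not say whether both are the same clone. Each state is 1 clone with 4 technical replicate libraries, so that all p-values of the Wdr34 comparison measure only the spread between libraries. State and serum change together and cannot be told apart, and the labels name no sequencing batch. Another Wdr34 mutant was obtained only once the non-ciliated cells had been sequenced, so at least some ciliated libraries were sequenced later, and state cannot be told apart from that either. References were the ciliated and non-ciliated control clones (4 clones each, 32 libraries) and the Wdr60 clone of each state (8 libraries), all of the same parental line. A further ciliated Wdr34 clone, labelled 3 (4 libraries), served as an alternative to clone 1; the labels name no allele for it, the study made more than 1 Wdr34 allele, and values with clone 3 may therefore compare different alleles.

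Wdr34 is an intermediate chain of dynein-2, the motor that carries intraflagellar transport (IFT) trains from the tip of the primary cilium back to its base. Trains move outward on kinesin-2 with the IFT-B complex and return with the IFT-A complex and dynein-2, and loss of dynein-2 function disturbs the return of cargo, including Hedgehog pathway proteins. Cells grow a primary cilium when they leave the cell cycle, which in culture is brought about by withdrawing serum, and they resorb it when serum returns. Serum withdrawal alone lowers growth factor, ribosome building and mitogen signalling, so that a comparison of the states holds the response to serum as well as that to ciliation.

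The guide used for codon 183 is shown because it is the only designed difference between the Wdr34 and control clones that the sources define for the non-ciliated clone. It has 19 bases followed by a PAM of 3 bases, with the edited cytosine (position 5, counted from 1 at the 5′ end of the guide) and the PAM in capitals.
Wdr34 codon 183 guide: tggtCggtgagtgagagctTGG
The site lies on the minus strand at chr2:30034747-30034768 of GRCm38, within Wdr34 (chr2:30031551-30048879), and the edited base is 30034764. It falls in exon 3 of 9 (30034763 to 30034872), at coding position 547 in the codon CGG, with 1 coding base of that exon after it. The first 6 bases of the guide were the last bases of the exon in the transcript, and the rest, in the following intron by its position, was not compared with the genome. Counts per gene do not show the edit.

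Totals were 15493164 to 17436097 counts in the ciliated and 16442600 to 20505629 in the non-ciliated Wdr34 libraries, and 13769 to 14060 genes had at least 1 count. Ribosomal protein genes took 1.15 to 1.32% of the counts in ciliated and 1.81 to 1.93% in non-ciliated Wdr34 libraries, against 0.828 to 1.35% and 1.26 to 2.70% in the controls. The 20 most abundant genes took 3.88 to 4.10% and 5.58 to 5.69%. Within a clone, pairs of libraries differed by more than sampling noise (chi-square per degree of freedom 2.06 to 6.77 over 12 pairs), and 0 pairs were identical. Values below are CPM, counts scaled to a common library size with TMM, and a call needed both a Benjamini-Hochberg adjusted p under 0.05 (edgeR quasi-likelihood test, 2-sided) and a change of 2-fold or more, that is 1 on the log2 scale. The words rose and fell are used only for such calls, from the non-ciliated to the ciliated clone.

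Of 11785 genes tested, 1462 rose (12.4%) and 1125 fell (9.55%) in the ciliated Wdr34 clone, together 22%. A change of at least 4-fold was seen for 426 genes that rose and 245 that fell, and of at least 16-fold for 90 and 30. The median log2 fold change over all tested genes was 0.0016. These counts describe a pair of clones and rest on the spread between libraries. With the libraries of each clone summed and the spread taken from the control clones, edgeR called 0 genes higher and 0 lower of 14300 (2144, or 15%, at an unadjusted p under 0.05, lowest adjusted p 0.149), and DESeq2 called 342 and 287. That DESeq2 fit was added after the data were seen, and wherever it is cited below the summed edgeR fit made no call. In bulk RNA, a lower share of cells of a type and less RNA per cell cannot be told apart.

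The control clones showed 366 genes higher (2.79%) and 294 lower (2.24%) in ciliated cells (5.03% in either direction), in a fit with the clone as the unit and the 8 clone sums taken as independent, and the Wdr60 clones 1112 (9.33%) and 687 (5.77%), in a fit with the library as the unit. The labels do not say whether ciliated and non-ciliated control clones are the same clones, and a pairing was not fitted. By median expression per chromosome some were close, differing by at most 0.13 (D8 and 3), 0.17 (G7 and 2) and 0.18 (A4 and 1) on the log2 scale. If these are the same clones, the sums are not independent and the unpaired fit keeps the spread between clones in its error. The control counts depend on single clones, from 89 higher and 75 lower without non-ciliated control 1 to 524 and 417 without non-ciliated control 2, and were 746 and 473 with libraries as the samples. Of the genes tested in both, 326 of the 342 that rose in the controls also rose in Wdr34 (95.3%), and they made up 22.5% of the 1452 that rose in Wdr34, of which 1410 had a positive log2 fold change in the controls. Among the genes that fell, 254 of 273 control genes fell in Wdr34 too (93%), or 22.7% of the 1121 that fell in Wdr34, of which 1099 had a negative log2 fold change in the controls, and 0 were called in opposite directions. These shares compare a fit over libraries with a fit over clones. With libraries as the samples the controls still had fewer calls than Wdr34 (746 and 473). How far the unit of the fit lowers the shares was not tested. With Wdr60, 801 genes rose in both (56.8% of those in Wdr34, 77.2% of those in Wdr60), 513 fell in both (47.4% and 79.3%) and 3 were called in opposite directions. In all 3 comparisons, 257 genes rose and 193 fell of 11630. The comparisons share no sample, but they share the change of state and serum. The median size of the log2 fold change over those genes was 0.498 in Wdr34, 0.362 in the controls and 0.408 in Wdr60. Pearson's r across genes, which are not independent replicates, was 0.877 between Wdr34 and the controls and 0.859 between Wdr34 and Wdr60.

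**Figure D1:**
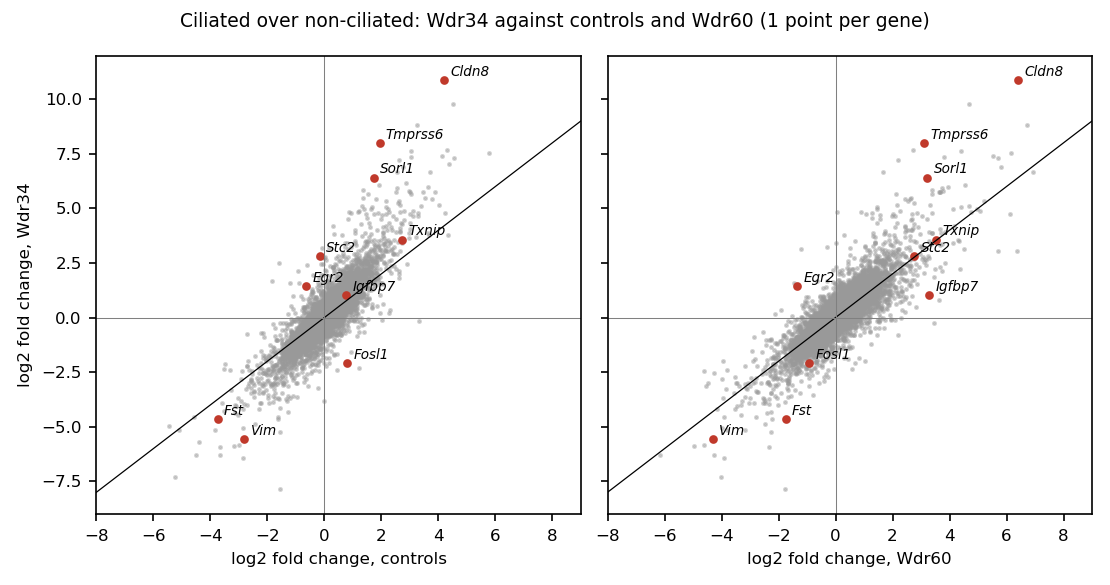
Log2 fold change from non-ciliated to ciliated cells in Wdr34 (vertical axis) against that in the control clones (left) and in the Wdr60 clones (right), 1 point per gene, with the diagonal of equal response. The cloud rises more steeply than the diagonal at the left (median size 0.498 in Wdr34 against 0.362 in controls). Cldn8, Tmprss6 and Sorl1 lie above it in both panels, Vim and Fst below it, and Egr2 is positive in Wdr34 (1.44) and negative in controls (-0.63) and Wdr60 (-1.35).

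The difference of the responses was tested directly. Against the controls, edgeR on summed clones called 0 genes with a larger and 0 with a smaller Wdr34 response (0% of 14300; 82, or 0.573%, at an unadjusted p under 0.05), and DESeq2 called 0 and 0. With 1 Wdr34 clone in each state and the control clones not paired, a difference as large as that of Cldn8 (6.91) was not called. The lack of calls therefore does not show equal responses. With libraries as the samples, 55 genes had a higher and 10 a lower response than in controls, among them Cldn8, Tmprss6, Sorl1 and Efhd1. Against Wdr60, with libraries as the samples, 338 genes of 12171 had a higher (2.78%) and 239 a lower (1.96%) log2 response in Wdr34, together 4.74%. With clone 3 in place of clone 1 these counts were 1092 and 781.

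The largest changes were ranked among called genes with a mean of at least 5 CPM over the 8 libraries and no overlap. Genes under a gene model symbol, such as a Rik name, were left out. Lrrc9, 8430408G22Rik, Atoh8 and Nog, described below, are therefore not ranked. 8430408G22Rik, now named Depp1, rose by 8.83 on the log2 scale, more than any ranked gene but Cldn8. The largest rise so ranked was that of Cldn8, a claudin of collecting duct tight junctions. It had 65.9, 76.7, 70.4 and 70.0 CPM in the ciliated libraries and 0, 0.0525, 0.0651 and 0 CPM in the non-ciliated ones. Only 2 counts were found over the 4 non-ciliated libraries, against 4882 in the ciliated ones, a ratio of 2330 with a 95% counting interval of 646 to 19300. In the controls Cldn8 ranged from 1.73 to 26.0 CPM over ciliated clones and from 0.0839 to 2.59 over non-ciliated ones, and its log2 fold change there was 4.2 (SE 1.22, adjusted p = 0.0548, edgeR). The Wdr34 response of Cldn8 exceeded that of Wdr60 by 4.50 (log2, adjusted p = 1.55e-04) and was not called against the controls (6.91, adjusted p = 1, edgeR on summed clones).

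Further genes among these rises were near silent in the non-ciliated clone. Tmprss6, a membrane serine protease, had 21.3, 26.7, 26.4 and 25.0 CPM in the ciliated libraries and 0.254, 0, 0 and 0.125 in the others (log2 fold change 7.99, SE 0.26). Chdh, the choline dehydrogenase on the route to the osmolyte betaine, had 52.7 to 60.5 CPM against 0.188 to 0.521 (7.65, SE 0.15). Ehf, an ETS transcription factor of epithelia, had 83.5, 59.0, 64.5 and 59.6 CPM against 0.682 to 1.30 (6.08, SE 0.16). For each of these genes every ciliated library lay above every non-ciliated one. Nrep, a small protein first described in regenerating nerve, had 176 to 198 CPM against 0.682 to 1.71 (7.38, SE 0.11, adjusted p = 4.49e-21). Sorl1, a sorting receptor for endosomes, had 61.8 to 72.4 CPM against 0.586 to 0.940 (6.41, SE 0.12). Lcn2, a siderophore-binding lipocalin that marks tubular injury, had 67.6 CPM in replicate 1 and 40.2 to 46.2 in the other ciliated libraries, against 0.735 to 1.08 (5.79, SE 0.21). The other 5 of the 12 largest ranked rises were Gc, the vitamin D-binding protein (7.54), Ggt1 and Gsta3 of glutathione metabolism (6.89 and 6.68), the mitochondrial Efhd1 (5.94) and the uroplakin Upk1a (5.74). In the controls the log2 changes of the 12 genes ran from 1.74 (Sorl1) to 5.76 (Gc), and those of Gc, Nrep and Efhd1 were called. The ciliated clone 3 had lower means than clone 1 for all of them but Sorl1 (108 against 67.0 CPM). The difference was large for Lcn2 (2.73 against 48.8 CPM), Ehf (2.76 against 66.7) and Gsta3 (0.41 against 13.1) and small for Efhd1 (32.0 against 34.6). Most of these rises were therefore smaller with clone 3.

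Among the falls, Vim, the intermediate filament of mesenchymal cells, had 4.15, 4.92, 4.58 and 4.28 CPM in the ciliated libraries and 211, 207, 222 and 216 in the non-ciliated ones. Its log2 fold change was -5.57 (SE 0.06, adjusted p = 1.47e-22, edgeR). Vim differed between clones within a state, from 3.48 to 149 CPM over the ciliated controls and 50.1 to 658 over the non-ciliated ones. The ciliated Wdr34 clone labelled 3 had 197 CPM, and with it in place of clone 1 Vim was not called (-0.12). Ccnd1, the cyclin D1 that drives exit from G1, had 12.4, 15.6, 12.2 and 13.3 CPM against 443, 475, 442 and 424 (-5.05, SE 0.06), a 33.2-fold difference with no overlap. Its range over the control clones was 2.18 to 85.8 CPM in ciliated and 2.92 to 434 in non-ciliated cells, and with clone 3 (3.53 CPM) the fall held.

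Siglecg, a sialic acid-binding lectin, had 0, 0, 0.119 and 0.110 CPM against 9.59 to 10.8 (-7.30, SE 0.30), from 4 counts against 684. Serpinb9b, a serine protease inhibitor, had 0.498 to 1.06 CPM against 40.8 to 47.1 (-5.87), and the immune receptor Tigit 0.329 to 0.995 against 33.0 to 37.9 (-5.84). The rest of the 12 largest ranked falls included genes of secreted and signalling proteins. Fst, which binds activins, fell by 4.64 on the log2 scale, Id3, an inhibitor of basic helix-loop-helix factors, by 4.63, Rgs16, a regulator of G-protein signalling, by 4.55 and the cytokine Il24 by 4.31. Gatm, the first enzyme of creatine synthesis, fell by 4.01, and Fam198b and Fam65b by 3.98 and 3.91. With clone 3 in place of clone 1, Id3 was not called (-0.51).

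**Figure D2:**
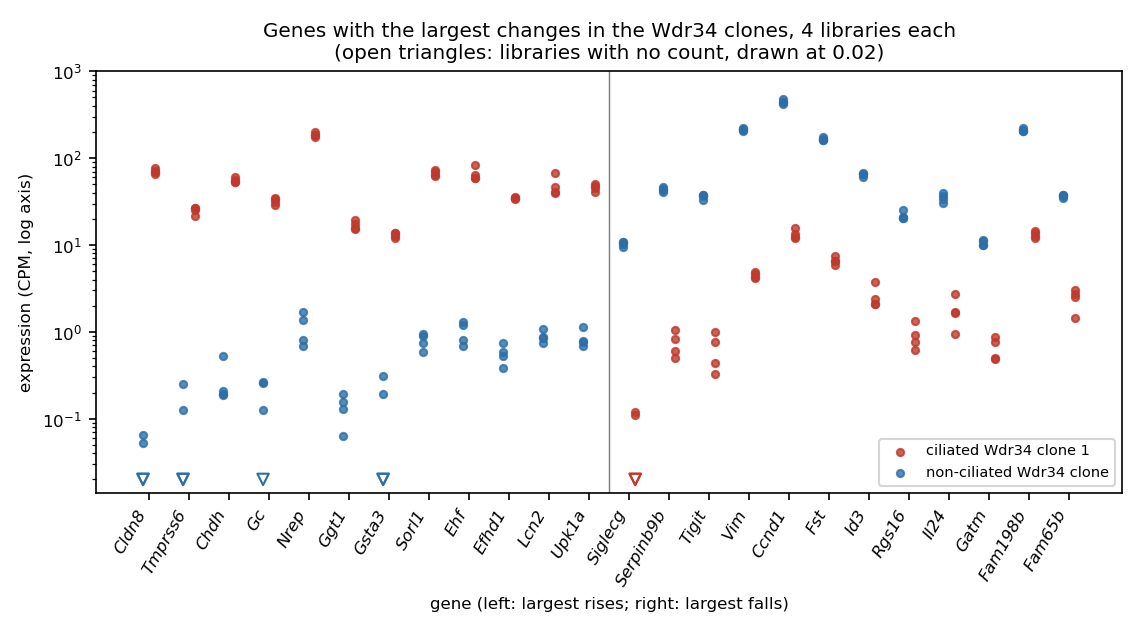
Expression (CPM, log axis) in each of the 4 libraries of the ciliated Wdr34 clone 1 (red) and of the non-ciliated Wdr34 clone (blue) for the 12 genes with the largest ranked rises (left) and the 12 with the largest ranked falls (right). Open triangles are libraries with no count. The groups are apart for all 24 genes, as the choice of genes requires, and the libraries of 1 clone lie close together: for Vim 4.15 to 4.92 CPM against 207 to 222.

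Few genes of the cilium's machinery were called, and the shares below are to be read against 12.4% of all genes higher and 9.55% lower. In every list, members at low levels could pass the filter through 1 clone alone, which leans the counts towards calls. Of the dynein-2 subunits, 0 of 10 tested passed both limits. Wdr34 had 39.7, 50.4, 48.5 and 46.1 CPM in the ciliated and 28.1, 28.3, 25.5 and 30.1 CPM in the non-ciliated libraries, with no overlap. Its log2 fold change of 0.73 (SE 0.07, adjusted p = 2.62e-08, edgeR) was under the fold limit and the controls had 0.61 (SE 0.15, adjusted p = 0.0374). In the ciliated clone 3 Wdr34 had a mean of 21.7 CPM (SD 1.97), below the non-ciliated mean of 28.0, so that its direction turned with that clone. Wdr60, the partner intermediate chain, had 19.6 to 23.6 CPM against 25.8 to 27.0 (-0.25, SE 0.07), and Dync2h1, the motor heavy chain, 17.6 to 22.5 against 17.8 to 20.2, where the groups overlapped. The light intermediate chain Dync2li1 had a log2 fold change of 0.44 and the light chain Tctex1d2 of -0.43.

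Among IFT-A genes, 1 of 7 rose and 1 fell. Ift140, a core subunit, had 48.9 to 50.5 CPM in ciliated and 19.8 to 25.2 in non-ciliated libraries (1.18, SE 0.07). Ttc21b, which encodes IFT139, went the other way with 11.9 to 13.8 CPM against 38.6 to 40.6 (-1.59, SE 0.07), and it fell in the controls (-1.56) and in Wdr60 (-1.96) as well. With summed libraries its log2 fold change was -1.56, called by DESeq2, which was added after the data were seen, and not by edgeR. Of 20 tested IFT-B and kinesin-2 genes 1 rose, Ttc30b of the tubulin-binding peripheral complex (1.40), and of 9 BBSome genes 0 were called. At the transition zone, the gate at the base of the cilium, 2 of 20 rose, the kinase Nek8 with 49.6 to 53.8 CPM against 13.5 to 17.9 (1.67) and Tctn1 (1.41). Of 11 ciliary membrane genes, the adenylyl cyclases Adcy6 (271 to 303 CPM against 120 to 133, log2 fold change 1.2) and Adcy3 (1.09) rose, though Adcy3, at 2.30 to 3.92 CPM, lost its call without ciliated replicate 2 (0.92) or without non-ciliated replicate 1 (0.95) or 4 (0.88). Nedd9, a scaffold of Aurora A in cilium resorption, rose (1.30), 1 of 11 disassembly genes, and Ccno, a cyclin-like gene of multiciliated cells, rose from a mean of 0.358 to 1.24 CPM (1.76), 1 of 7 tested regulators of ciliogenesis. With clone 3 in place of clone 1, Ttc30b, Tctn1, Adcy6 and Adcy3 were not called (0.28, 0.99, 0.27 and 0.84).

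Few replication and mitosis genes were called, and more of the G1 genes. Of 47 DNA replication and E2F target genes, 0 rose and 0 fell (median log2 fold change -0.11), and of 51 mitotic genes 1 rose and 1 fell (median -0.31), against backgrounds of 12.4% and 9.55%. The mitotic genes were lower by less than the fold limit, with 8 of 51 positive log2 fold changes and a summed level of 8140 to 8470 CPM in ciliated and 10300 to 11000 in non-ciliated libraries, without overlap. In the controls too 8 of 51 were positive (median -0.32). Mki67, the proliferation antigen, had 405, 378, 356 and 355 CPM in ciliated and 385, 387, 386 and 426 in non-ciliated libraries, which overlapped (-0.08, SE 0.04, adjusted p = 0.12, edgeR). Mcm2 of the replicative helicase had 463 to 486 CPM against 398 to 417 (0.23). The mitotic genes called were the kinetochore gene Spc25, higher (1.09), and the checkpoint kinase Bub1, lower (-1.11), and with clone 3 Spc25 was not called (0.65). Among G1 genes, 5 of 18 tested rose and 3 fell. The CDK inhibitors Cdkn1b (p27) and Cdkn1a (p21) rose from 76.3 to 84.1 CPM to 266 to 275 (1.75, SE 0.04) and from 131 to 142 CPM to 370 to 407 (1.53, SE 0.04). Cdkn2d and Cdkn2c rose too (1.25 and 1.01), as did Ccng2, an atypical cyclin of resting cells (1.75). Beside Ccnd1, its partner kinase Cdk6 (-1.49) and the p53 target Ccng1 (-1.97) fell. With clone 3 in place of clone 1, Cdkn1a was not called (0.27).

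Of 68 clustered histone genes, 35 passed the filter, of which 7 rose and 24 fell, where 12.4% of all genes rose and 9.55% fell (median -2.23 against 0.0016 over all genes). Most that fell were low enough to pass the filter only through the non-ciliated libraries, so that the count and median lean towards falls and support nothing. The genes that fell were at low levels: Hist1h4b had 0 to 0.249 CPM against 1.07 to 2.31 (-4.21) and Hist1h2bm 0 to 0.166 against 0.911 to 1.08 (-3.92). The genes that rose reached higher CPM. Hist1h1c, a linker histone, had 42.8, 39.6, 40.1 and 36.3 CPM against 9.02, 7.56, 6.64 and 7.64 (2.37, SE 0.09), and Hist1h2bc 39.6 to 48.3 against 7.74 to 10.5 (2.21, SE 0.09). The controls showed 4 higher and 18 lower and Wdr60 4 and 22. Most clustered histone transcripts end without a poly(A) tail and the libraries were made with an mRNA kit, whose part in these values was not tested, and reads may be split between near-identical copies. With summed libraries and DESeq2, 3 rose and 9 fell.

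Genes that build ribosomes fell together. Of 34 ribosome biogenesis genes, all tested, 30 fell and 0 rose, with a median log2 fold change of -1.45, against 9.55% of all genes lower. Dkc1, the pseudouridine synthase of the H/ACA complex, had 29.7, 32.1, 34.1 and 34.3 CPM in the ciliated and 135, 145, 145 and 140 in the non-ciliated libraries (-2.11, SE 0.05). Mybbp1a, a nucleolar protein of rRNA transcription and processing, had 302 to 323 CPM against 1140 to 1240 (-1.91, SE 0.04), Wdr12 of the large subunit pathway 25.8 to 27.7 against 90.6 to 95.4 (-1.80) and Npm1, nucleophosmin, 167 to 169 against 542 to 601 (-1.78). Groups did not overlap for these genes. Npm1 has near-identical copies in the genome, so that its count is uncertain. The 4 genes not called were Pes1 (-0.75), the polymerase I factor Rrn3 (-0.67), the shared polymerase subunit Polr1c (-0.25) and Ubtf, the factor that marks active rDNA (0.23). In controls 5 of 34 fell (median -0.85) and in Wdr60 10 (median -0.85), and summed DESeq2 called 6 lower in Wdr34.

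Promoters of 250 bases before to 50 bases after the start were taken from RefSeq (GRCm38.p6) for 29 of the 34 genes and searched on both strands for CACGTG, an E-box of the kind bound by Myc and related factors. This motif and that of the interferon genes below were chosen after the values were seen. It was present in 7 of the 29 (24.1%), in 5 of 25 promoters of the genes that fell (20%), in 10.4% of those of all tested genes and in 7.24% of 27025 promoters. The 7 genes with the motif had a median log2 fold change of -1.47 and the 22 without it -1.36. The promoter of Mybbp1a, a gene that fell, is printed with its E-box in capitals, 40 bases after the start, at chr11:72441077-72441376 on the plus strand.
Mybbp1a: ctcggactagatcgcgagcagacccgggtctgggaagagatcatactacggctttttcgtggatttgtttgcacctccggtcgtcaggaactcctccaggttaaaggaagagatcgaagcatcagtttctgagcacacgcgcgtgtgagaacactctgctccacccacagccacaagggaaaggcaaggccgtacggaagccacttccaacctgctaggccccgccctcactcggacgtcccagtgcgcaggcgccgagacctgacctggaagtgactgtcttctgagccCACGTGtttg

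Of 16 glycolytic genes tested in Wdr34, 9 fell and 1 rose (median -1.15), against 9.55% of all genes lower. Ldha, lactate dehydrogenase, had 247, 280, 270 and 284 CPM against 1250, 1300, 1270 and 1230 (-2.21, SE 0.04). Hk2, which commits glucose to the cell, had 45.1 to 50.6 CPM against 179 to 196 (-1.94), and Pgam1 had 148 to 194 against 523 to 583 (-1.66). All ciliated libraries lay below all non-ciliated ones for these genes. Gapdh fell by 1.42 on the log2 scale, though its many pseudogenes make the count uncertain, and Eno2, an enolase, rose (1.6). In the controls 0 of 17 glycolytic genes were called in either direction, in Wdr60 3 fell and 1 rose of 15, and the summed fits of Wdr34 called 0. The response of Ldha was lower in Wdr34 than in Wdr60 by 1.03 (log2, adjusted p = 9.95e-04) and was not called against the controls (-1.21, adjusted p = 1, edgeR on summed clones). Pfkfb3, which raises glycolytic flux, had 4.11 to 5.31 CPM against 16.9 to 18.4 in Wdr34 (-1.90) and a log2 fold change of 0.45 in Wdr60, a difference of -2.34.

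Of 14 heat shock genes 6 fell and 1 rose, against 9.55% of all genes lower and 12.4% higher: Hsph1 had 69.1 to 74.4 CPM against 479 to 508 (-2.79, SE 0.04), and the mitochondrial chaperonins Hspd1 and Hspe1 fell by 2.26 and 1.88 on the log2 scale, both genes with near-identical copies. The gene that rose was the small heat shock gene Hspb8 (1.08), which lost its call without ciliated replicate 1 (0.98). In the controls 4 of 14 fell, and with summed DESeq2 4 fell in Wdr34. In the endoplasmic reticulum 4 of 18 fell, among them Hspa5 (BiP), from 1150 to 1180 CPM to 504 to 530 (-1.16), and Pdia4 (-1.02; -0.99 without ciliated replicate 4 or non-ciliated replicate 3), and Herpud1, of the degradation pathway, rose (1.27).

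**Figure D3:**
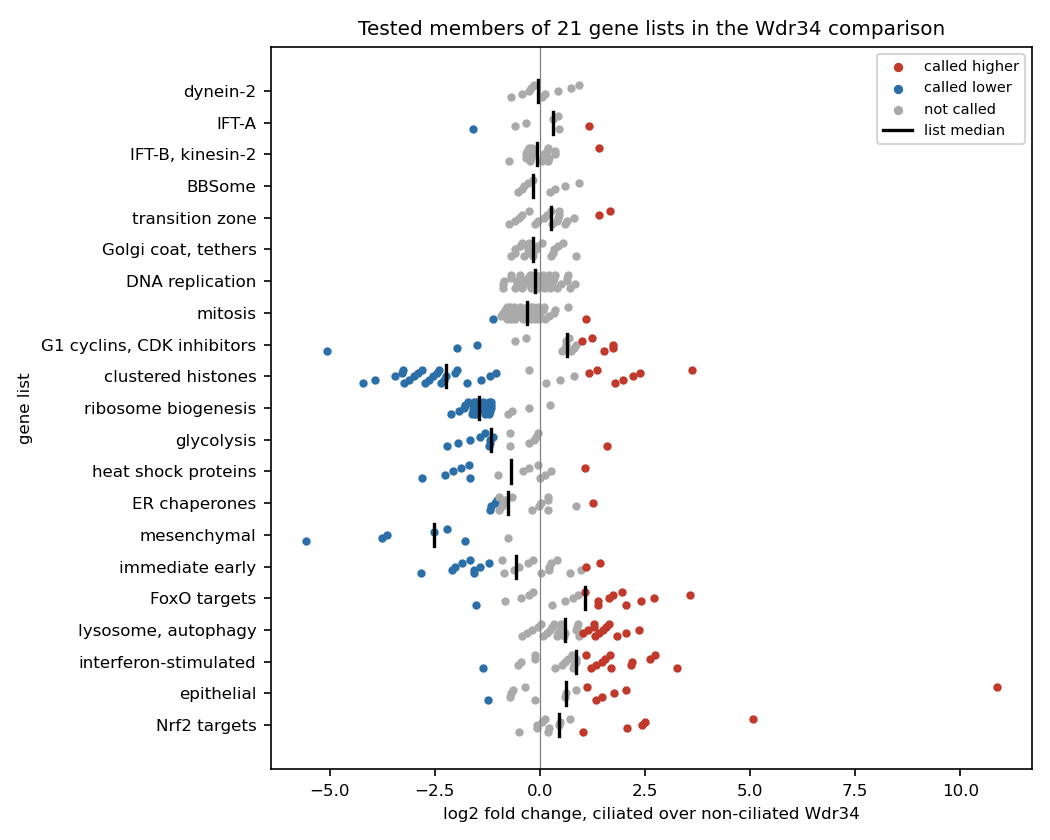
Log2 fold change of ciliated over non-ciliated Wdr34 (horizontal axis) for the tested members of 21 gene lists, 1 point per gene, coloured by the call, with a bar at the median of each list. Dynein-2, BBSome, Golgi, replication and mitosis genes lie near 0, ribosome biogenesis (median -1.45), histone and mesenchymal genes (-2.52) lie to the left, and FoxO targets (1.08) to the right. Most histone genes that fell passed the filter only through the non-ciliated libraries, so that the position of that list supports nothing.

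Of 19 tested FoxO targets, 10 rose and 1 fell (median 1.08), where 12.4% of all genes rose and 9.55% fell. The counts were 5 and 0 in the controls and 7 and 1 in Wdr60. Txnip, which restrains glucose uptake, had 719, 749, 714 and 728 CPM in ciliated and 63.8, 61.8, 59.9 and 61.3 in non-ciliated libraries (3.57, SE 0.04, adjusted p = 1.47e-22). The controls gave a log2 fold change of 2.72 and Wdr60 of 3.52, and both were called. Tsc22d3, the glucocorticoid-induced leucine zipper, had 39.0 to 44.6 CPM against 6.14 to 6.57 (2.71), Pik3ip1, an inhibitor of PI3 kinase, 12.5 to 15.3 against 2.15 to 2.98 (2.41), and Fbxo32 (atrogin-1) 13.6 to 15.7 against 3.18 to 3.88 (2.05). Cited2 fell (-1.52), and with clone 3 neither Fbxo32 (0.91) nor Cited2 (-0.44) was called. Summed DESeq2 called 4 of the list higher.

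Of 33 lysosome and autophagy genes 12 rose and 0 fell (median 0.59), where 12.4% of all genes rose and 9.55% fell. Gabarapl1, of the autophagosome, had 283, 312, 327 and 323 CPM against 65.2, 63.1, 61.1 and 56.3 (2.35, SE 0.05). The cargo receptor Sqstm1 rose from 299 to 323 CPM to 1260 to 1330 (2.05), the lysosomal Grn from 80.3 to 90.9 to 300 to 311 (1.84) and the kinase Ulk1, which starts autophagy, from 90.4 to 97.4 to 279 to 302 (1.64). Controls had 4 of 33 higher and Wdr60 10. Of 15 Nrf2 target and metallothionein genes, 5 rose and 0 fell, beside the same 12.4% and 9.55%. Nqo1, a quinone reductase, had 3.65 to 5.59 CPM against 0.0635 to 0.251 (5.08, SE 0.33), from 332 counts against 9. Gstm1 had 593 to 736 CPM against 99.6 to 126 (2.49), the metallothionein Mt1 168 to 229 against 31.8 to 39.3 (2.43) and Gclc, the limiting enzyme of glutathione synthesis, 332 to 368 against 76.3 to 89.8 (2.07). Summed DESeq2 called 3 of each of these lists higher.

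Of 15 epithelial genes 6 rose and 1 fell, against 12.4% and 9.55% of all genes: Epcam had 802, 801, 815 and 826 CPM against 205, 192, 206 and 193 (2.04, SE 0.04), the splicing factor Esrp2 124 to 136 against 34.8 to 44.5 (1.76) and the kidney cadherin Cdh16 428 to 445 against 140 to 171 (1.49). Krt7 fell (-1.23). Of 7 tested mesenchymal genes 6 fell and 0 rose (median -2.52). The transcription factors Zeb1 and Zeb2, which repress epithelial genes, had 0.834 to 1.33 CPM against 10.9 to 13.7 (-3.64) and 1.62 to 2.32 against 23.9 to 29.2 (-3.75), and S100a4 had 0.886 to 1.91 against 7.96 to 9.50 (-2.52). These genes varied between clones of 1 state: Epcam had 13.5 to 837 CPM over the ciliated controls and Zeb1 0.459 to 70.6. With clone 3 in place of clone 1, Zeb1 turned to 2.42 and Esrp2 to -0.32, and Epcam (0.53) and Zeb2 (-0.95) were not called. In the controls 3 of 7 mesenchymal genes fell and 1 of 15 epithelial genes rose.

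Of 27 tested matrix genes 8 rose and 7 fell, where 12.4% and 9.55% of all genes did. Fn1, fibronectin, had 521, 572, 519 and 526 CPM against 2930, 3140, 2970 and 3120 (-2.50, SE 0.04). Fibrillar Col5a1 had 0.387 to 0.995 CPM against 5.59 to 7.45 (-3.46), and with clone 3 it turned to 2.51. Basement membrane genes were among those that rose: Nid2 had 32.9 to 38.4 CPM against 2.83 to 4.45 (3.42) and Col4a4 172 to 184 against 39.8 to 50.7 (1.95; -0.01 with clone 3). Eln, elastin, had 128 counts in ciliated and 1 in non-ciliated libraries, a ratio of 122 with a 95% counting interval of 21.6 to 4870. Eln and Col5a1 passed the filter only through the clone where they were higher, so that the matrix counts lean towards calls. In the controls 0 of 32 matrix genes were called.

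Markers of the collecting duct were checked against the label of the line. The summed level of 10 duct epithelium markers was 3310 to 3550 CPM in ciliated and 2580 to 2630 in non-ciliated libraries, with Pax2, Pax8, Krt8 and Krt18 present in both. Of these 10 markers 2 rose and 1 fell, beside 12.4% and 9.55% of all genes. The marker that fell, Gata3, was near absent, with a mean of 0.217 CPM in ciliated and 0.72 in non-ciliated libraries. Defining transport genes of principal cells were absent or nearly so: Aqp2 and Scnn1b had 0 counts in all 8 libraries, and the 7 principal cell markers summed to 2.44 to 4.15 CPM in ciliated and 0.210 to 0.716 in non-ciliated libraries. Hsd11b2, which shields the mineralocorticoid receptor from cortisol, had 1.85 to 3.17 CPM against 0.105 to 0.260 (3.72). Of 22 transport genes 12 were tested, of which 3 rose and 2 fell, where 12.4% of all genes rose and 9.55% fell. Hsd11b2 and Aqp1 passed the filter only through the clone where they were higher, so that these counts lean towards calls. Car2, carbonic anhydrase 2, had 33.0 to 38.3 CPM against 6.14 to 7.39 (2.38) and the mineralocorticoid receptor Nr3c2 5.10 to 6.43 against 1.10 to 1.52 (2.16). Sgk1, a kinase that raises sodium uptake, had 11.7 to 13.6 CPM against 73.9 to 88.0 (-2.76), and the water channel Aqp1 fell from 103 counts to 14 (-2.90; 4.27 with clone 3). Among 18 tested tubule transcription factors 4 rose and 2 fell: beside Ehf, Irx3 had 62.4 to 74.9 CPM against 7.81 to 10.9 (2.91) and Lhx1 3.93 to 5.20 against 0.125 to 0.635 (3.83). Gata2 (-2.18) and Gata3 (-1.70) fell, and with clone 3 Gata2 was not called (-0.73) and Gata3 turned to 1.98. Lhx1 and Gata3 passed the filter only through the clone where they were higher.

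Markers of other cell types were mostly at or near 0. The 5 endothelial and 3 podocyte markers summed to at most 0.311 and 0.127 CPM in any library, and the 6 fibroblast markers to 1.66 to 3.22 CPM in ciliated and 2.28 to 3.10 in non-ciliated libraries. The immune list summed to 237 to 251 CPM against 15.8 to 21.1, nearly all from Csf1r, the receptor of colony stimulating factor 1, with 250, 245, 237 and 241 CPM against 18.5, 13.3, 15.6 and 16.5 (3.94, SE 0.06). The macrophage lysosomal gene Cd68 fell from 1.5 to 2.35 CPM to 0.834 to 1.16 (-1.09). Adgre1 and Lyz2 had 0 counts in all 8 libraries and Ptprc 0.189 and 0.411 CPM on average, and Csf1r rose in the controls (2.64) and in Wdr60 (3.27) too. Proximal tubule genes split, with Lrp2 (megalin) higher (1.6) and its partner Cubn lower (-3.07), 2.12 against 17.9 CPM. Umod of the thick limb had 91 counts in ciliated and 0 in non-ciliated libraries.

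Of 24 tested immediate early genes, which serum induces, 9 fell, 2 rose and 13 were not called, against 9.55% of all genes lower and 12.4% higher. Fosb had 2.38, 3.05, 4.35 and 3.73 CPM against 22.9, 22.9, 23.7 and 26.7 (-2.83), Fos 8.90 to 11.1 against 32.7 to 46.1 (-2.01) and Fosl1 7.34 to 12.3 against 35.8 to 41.8 (-2.09). The phosphatase Dusp1, which shuts off MAP kinases, fell by 1.84 on the log2 scale. Egr2 rose from 1.73 to 2.80 CPM to 4.82 to 6.81 (1.44) but fell in Wdr60 (-1.35), a difference of 2.80 (adjusted p = 4.90e-07, edgeR), and was not called with clone 3 (0.45). Fos fell less in Wdr34 than in Wdr60, by 1.96. In the controls 1 of 25 was called, Fos (-2.68).

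Of 18 YAP targets 4 rose and 7 fell, and these counts and those of SRF genes stand beside 12.4% of all genes higher and 9.55% lower. Ankrd1 had 79.9 to 95.5 CPM against 735 to 796 (-3.15), the receptor kinase Axl 78.0 to 92.5 against 607 to 626 (-2.88) and Cyr61, a secreted matricellular protein, 265 to 333 against 1680 to 1760 (-2.55). Ptpn14, itself a brake on YAP, rose (1.10). With clone 3, Axl (-0.77) and Ptpn14 (0.72) were not called. Of 15 actin genes driven by SRF 6 fell and 1 rose. Actb fell from 4140 to 4310 CPM to 1870 to 2230 (-1.05) and Tagln from 3.70 to 6.61 to 0.877 to 2.10 (-1.83), whereas Mylk, the myosin light chain kinase, rose from 1.73 to 2.60 to 66.2 to 74.2 CPM (4.99, SE 0.10), as it did in Wdr60 (4.97). The promoters of 6 of 17 genes of this list (35.3%) held a CArG box, as did 1.57% of all promoters.

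Of 20 BMP and TGF-beta genes 3 rose, a share near the 12.4% of all genes, and 9 fell, beside 9.55%. Nog, the BMP antagonist noggin, had 0.221, 0, 0 and 0.110 CPM against 5.65, 8.77, 7.22 and 7.71 (-6.29, SE 0.36), from 6 counts against 490. Inhba, the activin subunit, had 1.37 to 2.08 CPM against 23.1 to 31.2 (-3.91), so that both this ligand subunit and its antagonist Fst fell. Bmp6 had 47.5 to 52.8 CPM against 9.37 to 12.5 (2.25) and Tgfb1 102 to 117 against 31.4 to 34.2 (1.73). Of 16 EGF family genes 3 rose and 5 fell, beside the same shares: the receptor Erbb3 had 205 to 241 CPM against 48.1 to 55.6 (2.16) and the ligand Tgfa 140 to 147 against 45.7 to 48.7 (1.62), while the ETS factors Etv4 (-2.70) and Etv5 (-2.09), which respond to MAP kinase, fell. With clone 3, Erbb3 (0.20) and Tgfa (0.34) were not called.

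In the Notch list 3 of 14 rose and 1 fell, and the Notch, Hedgehog and IGF counts stand beside 12.4% of all genes higher and 9.55% lower. Notch3 had 77.7, 80.9, 85.4 and 85.9 CPM against 4.06, 2.41, 3.84 and 3.26 (4.63, SE 0.10), and the target Hes1 fell from 105 to 129 CPM to 47.0 to 53.1 (-1.24). The Notch3 response was larger than that of Wdr60 by 2.53 (log2, adjusted p = 2.18e-05). Of 8 tested Hedgehog genes 1 rose, the co-receptor Gas1 (57.7 to 63.7 CPM against 14.4 to 18.4, log2 fold change 1.85), and 1 fell, the effector Gli2 (4.48 to 5.72 against 8.91 to 12.5, -1.19; 0.19 with clone 3). The target and receptor Ptch1 had a log2 fold change of 0.44, under the limit. In the IGF list 2 of 7 rose, among them Igfbp7 (116 to 125 CPM against 56.5 to 62.9, log2 fold change 1.02), which had -0.57 with clone 3 and 0.99 without non-ciliated replicate 2.

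Of 26 tested interferon-stimulated genes 12 rose, 1 fell and 13 were not called (median 0.86), against 12.4% of all genes higher and 9.55% lower. The list has 37 members, and Irf7 and Oasl2 passed the filter only through the ciliated libraries, where they were higher. The count and median therefore lean towards rises and are a description only. Ifit3, which restrains viral RNA, had 371, 385, 395 and 372 CPM against 40.6, 35.1, 40.2 and 42.7 (3.27, SE 0.05). Irf7, the transcription factor that amplifies the response, had 2.44 to 3.45 CPM against 0.125 to 0.911 (2.75), Oasl2 1.12 to 1.72 against 0.0627 to 0.325 (2.61), Ifit1 4.21 to 5.35 against 0.826 to 2.19 (1.67) and the GTPase Igtp 10.9 to 14.0 against 3.68 to 5.08 (1.54). No library overlapped between the groups in these genes. Dhx58, a modulator of RNA sensing at 23 counts against 58, fell (-1.36) and lost its call without ciliated replicate 4 or non-ciliated replicate 2, and turned to 0.62 with clone 3. In the controls 2 of 34 rose, in Wdr60 5 of 25, and summed DESeq2 called 0 in Wdr34. Ifit3 ranged from 189 to 1240 CPM over the ciliated and from 39.1 to 358 over the non-ciliated control clones.

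The interferon-stimulated response element, searched on both strands as GAAA, any 2 bases and GAAA, was found in 17 of 30 promoters of this list (56.7%), in 3 of 11 of the genes that rose (27.3%; Ifit3, Ifit1 and Igtp), in 2.71% of those of tested genes and in 3.49% of all promoters. Promoters of Ifit3 and Ifit1, neighbours on chromosome 19 that both rose, are printed with the matches in capitals (RefSeq, GRCm38.p6, plus strand, chr19:34583279-34583578 and chr19:34640639-34640938). Both hold 2 matches, the first 156 and 104 bases before the start from which the promoter was taken. For Ifit3 the annotated gene span begins further upstream, at 34583119.
Ifit3: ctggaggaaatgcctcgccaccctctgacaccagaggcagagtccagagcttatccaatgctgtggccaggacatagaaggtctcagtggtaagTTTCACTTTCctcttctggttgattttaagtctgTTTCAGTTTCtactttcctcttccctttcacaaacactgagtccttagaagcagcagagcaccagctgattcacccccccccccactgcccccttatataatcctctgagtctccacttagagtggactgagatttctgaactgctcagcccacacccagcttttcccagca
Ifit1: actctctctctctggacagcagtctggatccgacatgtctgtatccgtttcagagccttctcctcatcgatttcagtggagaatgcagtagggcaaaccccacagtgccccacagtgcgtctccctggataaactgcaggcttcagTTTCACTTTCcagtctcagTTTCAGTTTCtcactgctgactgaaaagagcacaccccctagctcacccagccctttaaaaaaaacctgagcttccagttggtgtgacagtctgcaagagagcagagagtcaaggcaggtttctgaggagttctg

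The counts for fatty acid, Atf4, hypoxia and p53 genes stand against 12.4% of all genes higher and 9.55% lower. Of 13 fatty acid genes 2 rose, among them the regulator Srebf1 (1.30), and 2 fell, among them the desaturase Scd1 (-1.35; 3.05 with clone 3). The Atf4 list split, with 6 of 24 higher and 4 lower. Stc2, a secreted stress glycoprotein, had 16.7 to 23.0 CPM against 2.41 to 3.32 (2.80), the lipoprotein receptor Vldlr 581 to 624 against 97.0 to 104 (2.58) and Nupr1 74.1 to 87.7 against 15 to 17.0 (2.32). Among the members that fell were enzymes of serine and one-carbon metabolism, a grouping made after the values were seen: Psat1 had 124, 125, 124 and 125 CPM against 577, 567, 592 and 595 (-2.22, SE 0.04), Shmt2 -1.19 and Mthfd2 -1.18 on the log2 scale. In the hypoxia list 2 of 13 rose, among them Ndrg1 (401 to 430 CPM against 82.8 to 90.0, log2 fold change 2.26), and 1 fell, the collagen hydroxylase P4ha1 (-1.70). Of 21 p53 targets 3 rose and 4 fell, with Cdkn1a higher and Plk2 from 788 to 819 CPM to 137 to 148 (-2.49). Of 21 Golgi coat and tether genes 0 were called (median -0.16).

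Of 14 genes that the study names, a list it chose on these samples and so no independent evidence, 12 were tested, 3 rose and 2 fell. These counts stand beside 12.4% of all genes higher and 9.55% lower. Dcdc2a, a ciliary gene of the doublecortin family (chr13:25055273-25210706), had 39.7, 39.9, 38.5 and 37.7 CPM against 2.03, 2.47, 3.12 and 2.94 (3.89, SE 0.10), and it was not called with clone 3 (0.98). Gper1, a membrane receptor for estrogen, had 3.29 to 3.54 CPM against 0.125 to 0.846 (2.84) and Celsr1, a planar polarity cadherin, 56.8 to 63.7 against 22.3 to 24.8 (1.37). Rgs2 fell from 87 counts to 31 (-1.54; 1.08 with clone 3) and Arxes2 from 2.73 to 3.68 CPM to 1.19 to 1.87 (-1.04), the latter not called without ciliated replicate 1 (-0.98) or 3 (-0.93), without non-ciliated replicate 1 (-0.97) or with clone 3 (-0.08). Vegfa had 54.5 to 59.7 CPM against 53.7 to 61.6, with overlap (0.01), Pvrl1 -0.65, Zdhhc14 -0.78, Rgs9 0.73, Il15 0.61, Col16a1 0.50 and Rab6b -0.10, all under the limits. Rgs9 was called without non-ciliated replicate 2 (1.33) and Zdhhc14 without ciliated replicate 3 (-1.05), and Rab6b turned to 2.09 with clone 3. Elmod1 and Myo5c did not pass the filter, with 5 counts against 37 and 6 against 0.

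Whether the compared clones are alike was described by the median expression of each chromosome against the control clones of the same state. Profiles of the ciliated Wdr34 clone 1 and the non-ciliated Wdr34 clone differed by at most 0.10 on the log2 scale (chromosome 4) and by 0.032 on average. Both were higher on chromosome 3, by 0.34 and 0.41, as were the non-ciliated control AB (0.38) and the ciliated control H12 (0.37), so that this shift is not particular to the Wdr34 clones. The other 5 non-ciliated clones differed from clone 1 by 0.22 to 0.86 at their most distant chromosome. The ciliated clone labelled 3 differed from the non-ciliated Wdr34 clone by up to 0.41 (chromosome 3), and it was lower on chromosomes 2 (-0.39) and 15 (-0.37) and higher on chromosome 4 (0.38).

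Genes with at most 3 counts in 1 clone and a mean of at least 5 CPM in the other numbered 5 between the Wdr34 clones. Atoh8, a basic helix-loop-helix factor, was the gene near absent from the ciliated clone, with 2 counts against 556, a ratio of 0.00344 (95% counting interval 4.15e-04 to 0.0125). It had 8.02 to 9.34 CPM in the non-ciliated libraries, and the ciliated clone 3 had 16.3 CPM, so that the direction turned with that clone (0.96). Near absent from the non-ciliated clone were Cldn8, 8430408G22Rik (1 count against 706, ratio 675, 95% counting interval 121 to 26700), Lrrc9 (0 counts against 453) and Selenbp2 (3 against 367, ratio 117, 39.7 to 570). Between clone 1 and the other non-ciliated clones such genes numbered 5 to 37, with the lowest number for control 3, and between clone 3 and the non-ciliated Wdr34 clone 55. At a mean of at least 1 CPM the Wdr34 pair had 37 such genes, and clone 1 had 52 to 114 with the other non-ciliated clones. Other pairs of a ciliated and a non-ciliated clone had fewer, such as 8 for the Wdr60 pair, 6 for controls D8 and 3, 15 for G7 and 2 and 25 for A4 and 1.

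**Figure D4:**
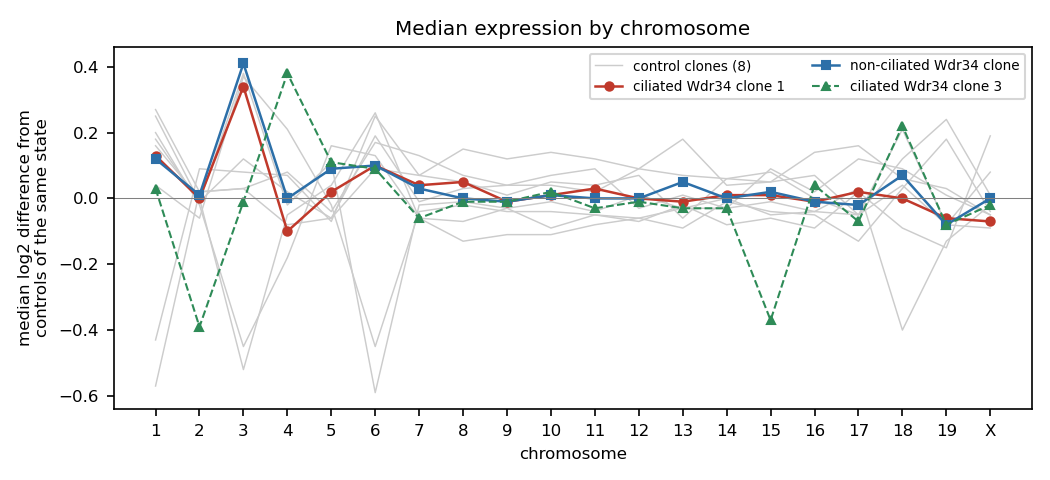
Median over genes of the log2 difference from the control clones of the same state (vertical axis) for each chromosome, in the ciliated Wdr34 clone 1 (red circles), the non-ciliated Wdr34 clone (blue squares), the ciliated Wdr34 clone 3 (green triangles) and the 8 control clones (grey lines). The red and blue lines run together, with 0.34 and 0.41 on chromosome 3, and the green line departs from them on chromosomes 2, 3, 4 and 15.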

How the data were processed

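RNA libraries were made with an mRNA kit and sequenced as paired ends by the authors, who aligned reads to GRCm38/mm10 with Rsubread and made gene counts with featureCounts (R 3.4.4 and DESeq2 1.18.1 per the labels). The deposited values are raw counts, whole numbers without normalization; strand setting and multi-mapping are not given in the sources used here, so overlapping genes and near-identical copies are uncertain. Of 24421 symbols 24300 (99.5%) matched RefSeq of GRCm38.p6, and the guide site was placed with the GENCODE annotation of the same build. The libraries were taken by their labels, and the comparison and gene lists were chosen with earlier results of these data known.

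Counts were filtered with filterByExpr, TMM-normalized and tested with glmQLFTest of edgeR 4.0.16 (R 4.3.3), between the 4 ciliated and 4 non-ciliated Wdr34 libraries, and calls needed an adjusted p under 0.05 plus a 2-fold change. SE is the size of the log2 fold change divided by the square root of F. Control clones were summed over their 4 libraries. The Wdr34 minus control response used 10 sums with 6 residual degrees of freedom, the lone Wdr34 clones being assumed to vary like the control clones. Totals were 15493164 to 20505629 counts, so 1 CPM was 15.4 to 19.0 counts. Counting intervals are exact, at 95%, and cover counting error only. The text names the 12 largest changes in each direction with a mean of at least 5 CPM over the 8 libraries and no overlap. Genes under a gene model symbol, such as a Rik name, were left out of that ranking. Also named are up to 4 members of each list per direction, the study's named genes, and genes of the clone and response comparisons. Members that a sentence on a complex needs are named too, namely Dync2li1, Tctex1d2, Ptch1, Mcm2 and Mki67. The tests were tried on simulated data. Replicate numbers did not pair the samples. Alternatives were DESeq2 1.42.0, voom in limma 3.58.1, RLE factors, other filters and thresholds, a replicate block, summed libraries, clone 3 in place of clone 1, and leaving out libraries or control clones.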

Additional observations from a re-analysis of the deposited data

Results flagged for a closer look

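Among 295 groups of 4 libraries looked at, with a mean of at least 1 CPM, 15 held a library far from the other 3, its gap to the nearest one exceeding Dixon's 95% limit as a share of the group's range, a limit that chance passes in about 1 of 20 groups. In the non-ciliated clone these were replicate 2 for Fst (174 CPM, others 162 to 164), Rgs16 (25.6, others 20.2 to 21.1), Sgk1 (73.9, others 85.8 to 88.0), Lrp2 (3.83, others 4.82 to 4.89) and Inhba (31.2, others 23.1 to 24.5). Replicate 4 stood apart for Mki67 (426, others 385 to 387), Polr1c (95.4, others 108 to 111) and Cyr61 (1760, others 1680 to 1690), and replicate 1 for Atoh8 (9.34, others 8.02 to 8.20). In the ciliated clone replicate 2 stood apart for Cdh16 (445 CPM, others 428 to 429), Fn1 (572, others 519 to 526) and Mthfd2 (88.1, others 94.5 to 95.3), replicate 1 for Id3 (3.71, others 2.08 to 2.36), replicate 4 for Sgk1 (13.6, others 11.7 to 11.8) and replicate 3 for Gli2 (5.72, others 4.48 to 4.60).

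For 46 of the named genes the response of Wdr34 differed from that of Wdr60 by an interaction test (edgeR, libraries as samples, adjusted p under 0.05 and a log2 difference of at least 1). The named genes were chosen for large Wdr34 changes and in part for this very difference, so that their number is a description and is not set against the share of all genes. The log2 response was higher in Wdr34 for Lrrc9 (5.17), Add2 (5.05), Selenbp2 (5.03), Chdh (4.96), Tmprss6 (4.91), Cldn8 (4.50), Lhx1 (3.23), Sorl1 (3.2), Egr2 (2.80), Notch3 (2.53), Hsd11b2 (2.42), Efhd1 (2.20), Upk1a (2.11), Lcn2 (2.05), Fos (1.96), Nrep (1.85), Ehf (1.55), Ndrg1 (1.51), Nupr1 (1.38), Tsc22d3 (1.31), Gas1 (1.25), Erbb3 (1.21), Fosb (1.19), Fbxo32 (1.14), Celsr1 (1.09) and Vldlr (1.03). It was lower in Wdr34 for Atoh8 (-6.09), Siglecg (-3.28), Fst (-2.87), Tagln (-2.64), Id3 (-2.39), Pfkfb3 (-2.34), Igfbp7 (-2.25), Ankrd1 (-2.21), Col5a1 (-2.20), Il24 (-2.04), Fam198b (-1.63), Vim (-1.26), Zeb2 (-1.22), Tigit (-1.21), Axl (-1.17), Plk2 (-1.14), Cyr61 (-1.12), Ccnd1 (-1.06), Fam65b (-1.04) and Ldha (-1.03). The comparison holds 1 clone of each mutant in each state (with the ciliated Wdr34 clone 3 in place of clone 1, 1092 genes were higher and 781 lower), so that the difference between genes edited and the difference between clones cannot be told apart.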

How the results depend on the processing

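The Wdr34 calls, 1462 higher and 1125 lower, became 0 and 0 when libraries were summed and the spread was taken from the control clones (edgeR), 342 and 287 with the same sums in DESeq2 (chosen after seeing the data), and 4896 and 4869 by adjusted p alone. Leaving out 1 library gave 1481 to 1528 higher and 1126 to 1165 lower. In the controls, 366 higher and 294 lower became 746 and 473 with libraries as samples and 802 and 962 by adjusted p alone, and DESeq2 called 582 higher. Without 1 control clone the counts ran from 89 and 75 (without non-ciliated control 1) to 524 and 417 (without non-ciliated control 2), with 197 and 157 without A4, 164 and 148 without H12, 125 and 135 without non-ciliated control 3, and 214 higher without AB. The Wdr60 counts ran from 1091 to 1170 higher and 667 to 771 lower without 1 library. For the difference from the controls, libraries as samples gave 55 higher and 10 lower, clone 3 in place of clone 1 gave 1 lower, and leaving out a control clone gave 0 and 0. For the difference from Wdr60, clone 3 gave 1092 and 781, and leaving out 1 replicate number gave 250 to 341 and 162 to 241. Genes near absent from 1 Wdr34 clone numbered 37 at a mean of at least 1 CPM. The summed fits have fewer samples and take their spread from the control clones. The cause of these shifts was not tested.

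Replicate numbers are shared by both Wdr34 clones, but deviations of same-numbered libraries correlated at -0.16 to -0.0063 in 4 pairs, 0 over 0.1, and in 0 of 4 a library correlated best with its own number. With the replicate block the counts were 1462 and 1127 in Wdr34, 1124 and 716 in Wdr60, and 329 and 234 for their difference.

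Of 171 named genes tested, 152 were called. DESeq2, RLE factors and the replicate block changed 0 of these calls, the summed edgeR fit lost all 152, and leaving out 1 library lost a call in 12 of 1368 fits, for 6 genes. With clone 3, 20 genes lost their call and 5 gained one without a change of sign. Another 13, each called with clone 1 or with clone 3, turned sign: Esrp2 (-0.32), Zeb1 (2.42), Col4a4 (-0.01), Col5a1 (2.51), Gata3 (1.98), Aqp1 (4.27), Gli2 (0.19), Igfbp7 (-0.57), Dhx58 (0.62), Scd1 (3.05), Rgs2 (1.08), Rab6b (2.09) and Atoh8 (0.96). Those of the 13 under 1 in size were not called with clone 3. Genes called with neither clone are not counted here, though some turned too, such as Wdr34 (mean 21.7 CPM in clone 3, 28.0 in the non-ciliated clone). Scaling by total counts moved the median log2 difference to 0.147, against 0.002 with TMM. Genes at a few counts, such as Eln, Umod and Lrrc9, are limited by depth.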
